A study of Mus musculus with 8 samples.

Results

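The 9 genes described here encode factors that start the decay of messenger RNA: the CCCH zinc finger proteins Zfp36, Zfp36l1 and Zfp36l2, the anti-proliferative adaptors Btg1, Btg2, Tob1 and Tob2, the endonuclease Zc3h12a (regnase-1) and the deadenylase subunit Cnot6l. They were taken by gene name from the deposited count table, where 9 of 54532 rows carry these names, and all 9 passed the filter on low counts. RNA came from bone marrow LSK cells, which lack lineage markers and carry Sca-1 and c-Kit, of C57BL/6 mice. The AML1/ETO group had 3 libraries of the genotype Runx1-Runx1t1, the fusion gene of the t(8;21) translocation in acute myeloid leukaemia, and the control group had 5 libraries of wild-type mice. Both groups had been given poly(I:C), a double-stranded RNA that raises interferon, in 4 doses of 5 mg/kg, and were sampled 4 weeks after it. The labels do not give the age of the mice, the promoter or Cre behind the fusion allele, or whether each library is a separate animal, and p-values therefore reflect the spread among libraries, which may be technical.

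Most mRNA decay begins when the poly(A) tail is shortened by the CCR4-NOT complex, after which the cap is removed and the transcript is degraded from both ends. ZFP36 proteins bind AU-rich elements in 3′ untranslated regions and bring CCR4-NOT to them, and mRNAs of cytokines and immediate early genes are their best known targets. BTG and TOB proteins bridge the deadenylase subunits CNOT7 and CNOT8 to RNA-bound partners such as the poly(A)-binding protein, and slow proliferation when overexpressed. In mice, Zfp36l2 is needed for definitive haematopoiesis, Btg1 and Btg2 help to keep T cells quiescent, and regnase-1 restrains blood stem and progenitor cells.

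The libraries held 14693080 to 16433454 counted reads in the AML1/ETO group and 16374232 to 17527043 in the control group. Reads of Runx1t1, the ETO part of the fusion, numbered 712 to 1971 per AML1/ETO library and 27 to 132 per control. Xist reads numbered 28559 to 33151 per AML1/ETO library and at most 111 per control, and those of the Y-linked Ddx3y 0 per AML1/ETO library and 3688 to 5038 per control. Genotype and these sex-linked markers cannot be told apart in any comparison below. A principal component with 14.3% of the variance set library 1 of both groups apart, at 106 for AML1/ETO library 1 and 102 for control 1, against -52.7 to -14.7 for the other 6. Of 12 stem cell and LSK markers, 10 were higher and 1 lower in AML1/ETO cells; Ly6a, the gene of Sca-1, averaged 465.8 CPM, the depth-scaled read count used throughout, on library sizes scaled by TMM, in AML1/ETO cells and 14.99 CPM in controls, although both were sorted as Sca-1 positive. Counts from a sorted population cannot separate a change per cell from a change in which cells passed the gate, so fewer cells of a type and less RNA per cell look alike.

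In AML1/ETO LSK cells 8 of the 9 decay factors were higher than in controls and Cnot6l did not pass the test. By the same test, edgeR's quasi-likelihood F with Benjamini-Hochberg adjustment over 15009 genes and a threshold of 0.05, 25.7% of all tested genes were called, 11.6% higher and 14.2% lower. The 9 genes and the lists below were chosen with earlier results of these data known. Counts set beside these shares are therefore descriptions and not independent evidence about the groups of genes. None of the 9 was lower, at an unadjusted p under 0.05 as well or with DESeq2 or limma-voom. Without library 1 of both groups, 7 of the 9 were called higher and Zc3h12a was not (adjusted p = 0.115). The median log2 fold change of the 9 genes was 1.58, against -0.09 over all tested genes. For the same 8 genes every AML1/ETO library lay above every control library, a separation seen in 14.1% of tested genes. As a sum, the 9 genes took 8049 to 9335 CPM in the AML1/ETO libraries and 1974 to 2081 CPM in the controls. The size of the rise ran from 1.58-fold for Zfp36l2 to 18.2-fold for Zfp36.

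**Figure D1:**
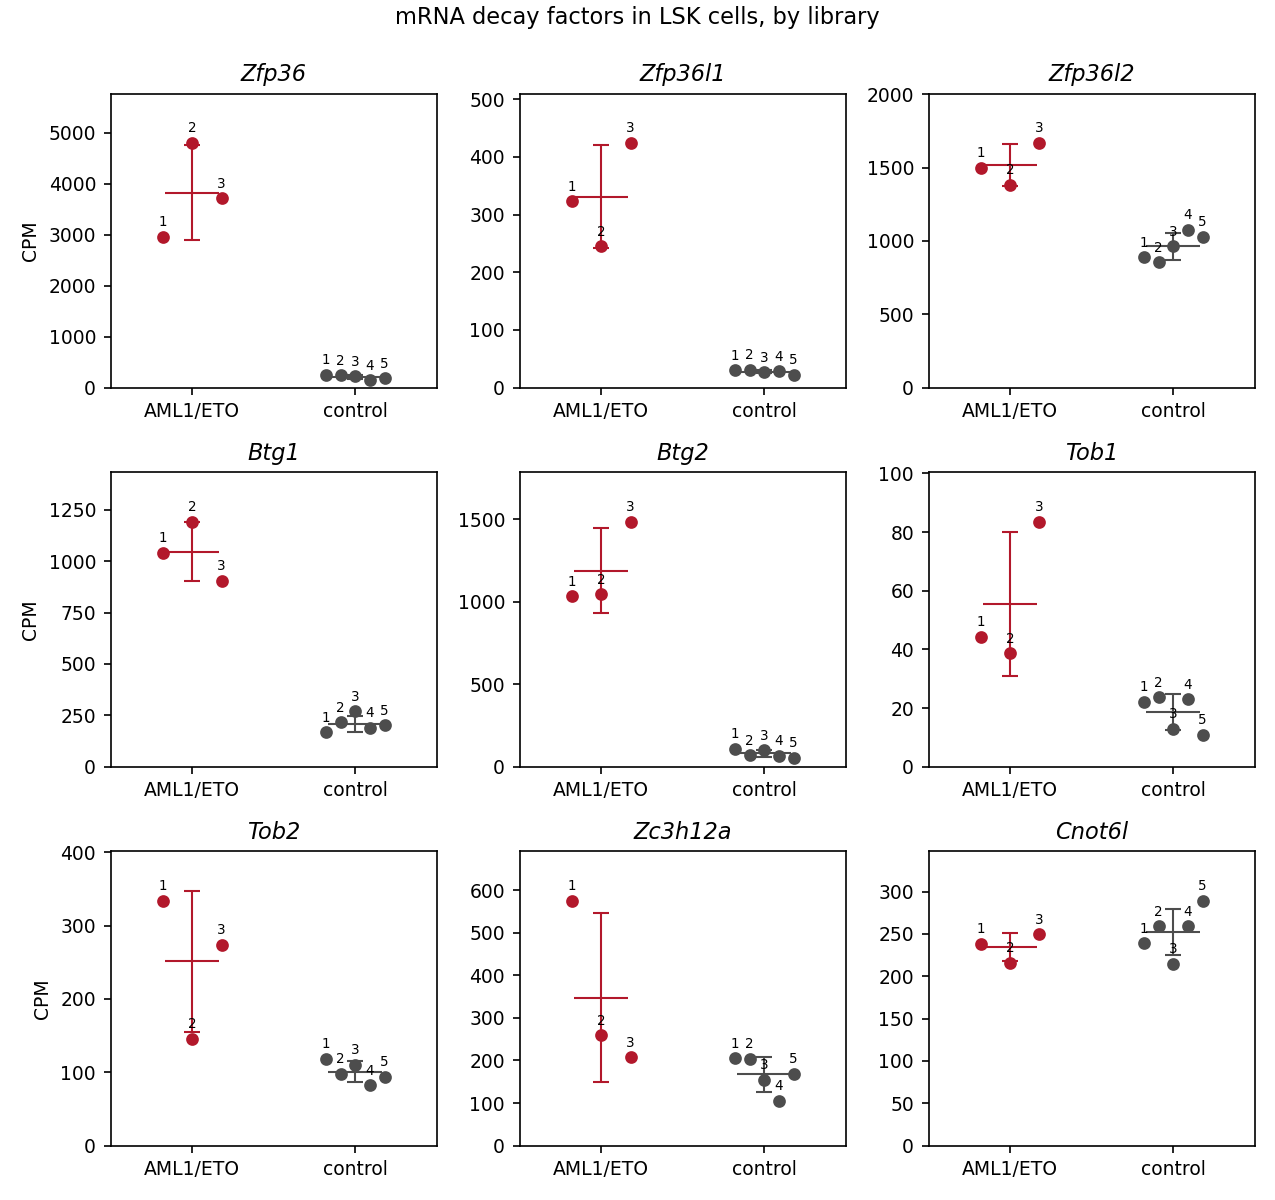
CPM (depth-scaled read count, TMM library sizes) of each decay factor in each library, AML1/ETO in red and control in grey; points are libraries with their replicate number, and the horizontal line and bars are the mean and SD. All panels start at 0, and the 3 AML1/ETO points lie above all 5 control points for every gene but Cnot6l.

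**Figure D2:**
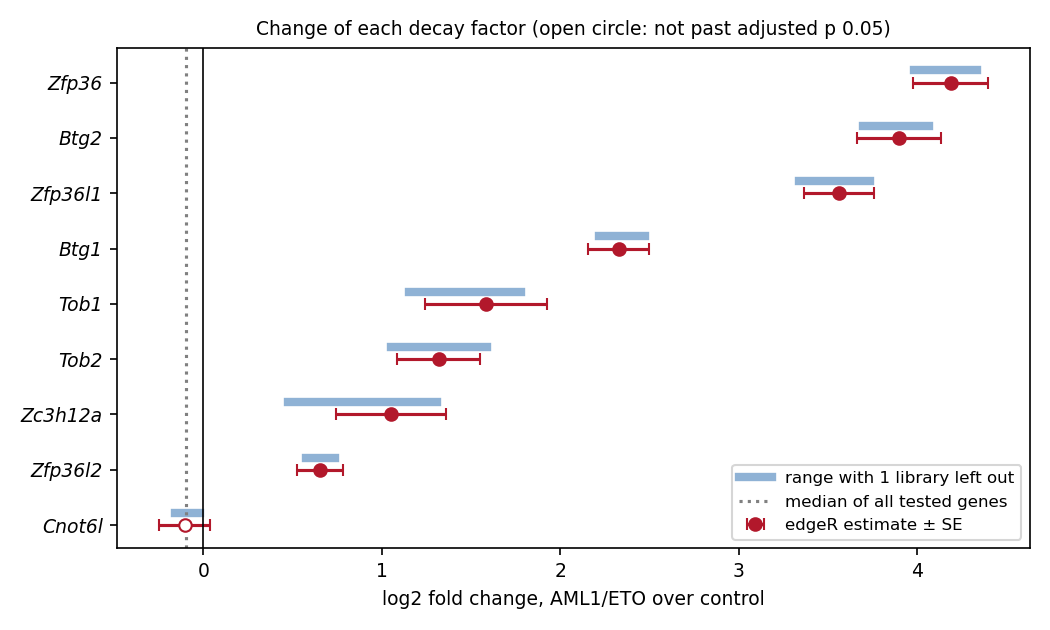
Log2 fold change (AML1/ETO over control) of each decay factor with its SE, and the range when 1 library at a time was left out (blue bars). Zfp36, Btg2 and Zfp36l1 lie above 3, and Cnot6l, drawn as an open circle, lies near the median of all tested genes at -0.09.

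Zfp36 (tristetraprolin; ENSMUSG00000044786, chr7:28376784-28380253 in mm10, minus strand), the founding AU-rich element binding protein, stood at 2962, 4808 and 3712 CPM in AML1/ETO libraries 1, 2 and 3, against 251, 239, 228, 143 and 189 CPM in controls 1 to 5. The lowest AML1/ETO library was far above the highest control, and library 2 was the highest. The log2 fold change was 4.19, with an SE of 0.21 (adjusted p = 1.94e-07). Per length of exon, Zfp36 ranked 28 of 14997 tested genes with a length in AML1/ETO cells and 701 in controls. The union of its annotated exons, 3470 bases, fills the whole gene and leaves out no intron. Its level per length, and its share of the family below, may therefore be too low.

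Zfp36l1 (ENSMUSG00000021127, chr12:80107754-80113013, minus strand), a paralogue with the same RNA-binding fingers, stood at 323, 246 and 425 CPM in AML1/ETO libraries and at 30.7, 31.0, 27.1, 28.7 and 22.7 CPM in controls. Its control values were close together and its AML1/ETO values were all several-fold above them (11.8-fold between means, log2 fold change 3.56 with an SE of 0.20, adjusted p = 3.73e-07). A lincRNA on the opposite strand, Gm26669, shares 1672 exon bases with it, or 55.9% of its exon length, and had 37 to 96 reads in AML1/ETO libraries and 0 to 28 in controls. The sources used here do not say whether the counting used strand, so reads of the shared stretch cannot be told apart and the level of Zfp36l1 is uncertain.

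Zfp36l2 (ENSMUSG00000045817, chr17:84183931-84187947, minus strand) was already abundant in controls. It stood at 1498, 1384 and 1671 CPM in AML1/ETO libraries and at 889, 857, 965, 1076 and 1029 CPM in controls. The groups did not overlap, but the step was small beside that of its paralogues: 1.58-fold, log2 fold change 0.66 with an SE of 0.13 (adjusted p = 0.00310).

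The make-up of the family therefore differed between the groups. Per kilobase of exon, Zfp36 made up 66.5% ± 6.98 of the family's summed level in AML1/ETO cells (SD, n = 3) and 17.8% ± 4.26 in controls (SD, n = 5). Zfp36l2 made up 26.6% ± 4.94 in AML1/ETO cells and 79.5% ± 4.53 in controls, so the leading paralogue was Zfp36 in all 3 AML1/ETO libraries and Zfp36l2 in all 5 controls. Zfp36l1 was the smallest part in both, at 6.88% ± 2.16 in AML1/ETO cells and 2.75% ± 0.423 in controls. The summed level was 1386 to 1860 CPM per kb in AML1/ETO libraries and 322 to 356 CPM per kb in controls.

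**Figure D3:**
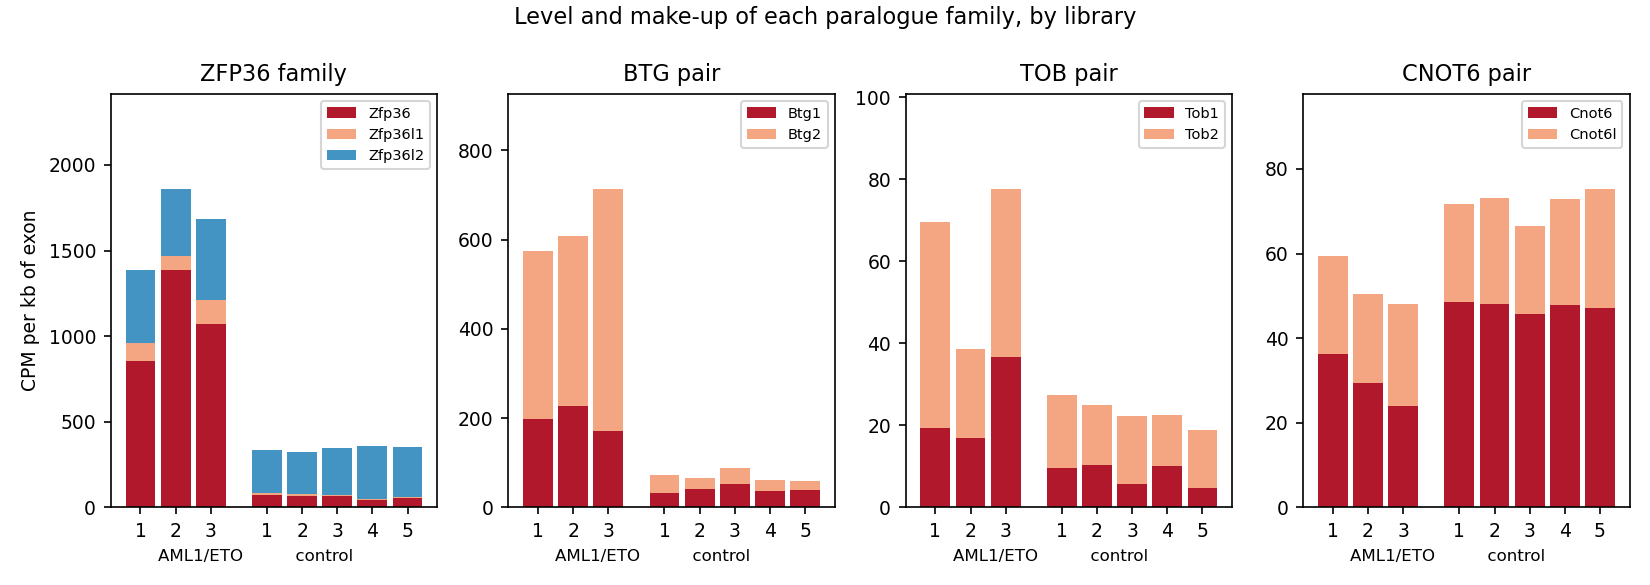
CPM per kb of exon, stacked by paralogue, for the ZFP36 family, the BTG and TOB pairs and the CNOT6 pair; each bar is a library, AML1/ETO 1 to 3 on the left and control 1 to 5 on the right, and each panel has its own scale from 0. Zfp36 fills most of the AML1/ETO bars and Zfp36l2 most of the control bars, and the CNOT6 pair is the only one of the 4 whose AML1/ETO bars are lower than the control bars.

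ZFP36 proteins bind UAUUUAU-like elements, and the mRNAs of the family carry such elements themselves. In the longest annotated 3′ untranslated region (GENCODE M21), TATTTAT occurred 3 times each in Zfp36, Zfp36l1, Zfp36l2 and Cnot6l and 1 time each in Btg2 and Tob2. It did not occur in Btg1, Tob1 or Zc3h12a. Of 12291 tested genes with such a region, 4.04% held 3 or more matches and 69.95% held none. The match nearest the stop codon is printed for the ZFP36 family and Btg2, since these sequences are the kind of site the family reads; TATTTAT is in capitals with 8 bases on either side, in mm10 on the minus strand at chr7:28376969-28376991 for Zfp36, chr12:80108425-80108447 for Zfp36l1, chr17:84184917-84184939 for Zfp36l2 and chr1:134077252-134077274 for Btg2.
Zfp36: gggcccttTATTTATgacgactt
Zfp36l1: tcaaaacgTATTTATtgccaaac
Zfp36l2: atttaactTATTTATtatcttgt
Btg2: tgaagagcTATTTATacatgttt
All 4 hold the same 7 bases in different surroundings. A match is a description and does not show that a protein binds there. Among tested genes as a whole, the median log2 fold change was -0.19 with 3 or more matches, -0.04 with 2, -0.18 with 1 and -0.12 with none; these classes also differ in length, with median 3′ untranslated regions of 3202, 2566, 1828 and 859 bases.

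Of the BTG and TOB adaptors, Btg2 (ENSMUSG00000020423, chr1:134075170-134079120, minus strand), a p53 target and early response gene, stood at 1033, 1045 and 1486 CPM in AML1/ETO libraries, against 109, 69.4, 98.1, 67.4 and 55.0 CPM in controls. This 14.9-fold rise (log2 fold change 3.89 with an SE of 0.23, adjusted p = 6.78e-07) was the largest after that of Zfp36, and library 3 was the highest. Btg1 (ENSMUSG00000036478, chr10:96617006-96622809, plus strand), its closest relative, stood at 1041, 1193 and 905 CPM in AML1/ETO libraries and at 168, 215, 271, 189 and 201 CPM in controls. Here the highest library was 2 and the lowest was 3, and the rise was 5.01-fold (log2 fold change 2.33 with an SE of 0.17, adjusted p = 2.90e-06). Per kilobase, Btg2 made up 68.1% ± 6.93 of the pair in AML1/ETO cells (SD, n = 3) and 42.0% ± 8.02 in controls (SD, n = 5), ranging from 62.8% to 75.9% in AML1/ETO libraries and from 34.5% to 55.6% in controls.

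The TOB genes were scarcer. Tob1 (ENSMUSG00000037573, chr11:94211454-94215495, plus strand) stood at 44.4, 38.6 and 83.6 CPM in AML1/ETO libraries and at 22.1, 23.7, 12.9, 23.1 and 10.9 CPM in controls. Library 3 was well above the other AML1/ETO libraries, and the groups did not overlap. The log2 fold change was 1.58, with an SE of 0.34 (adjusted p = 0.00548). Without library 3 it was 1.15 (adjusted p = 0.0409). Tob2 (ENSMUSG00000048546, chr15:81848272-81858796, minus strand) stood at 334, 146 and 274 CPM in AML1/ETO libraries, against 119, 97.9, 110.2, 82.7 and 93.9 CPM in controls, a 2.49-fold rise (log2 fold change 1.32 with an SE of 0.23, adjusted p = 0.00165). Its lowest AML1/ETO library was 2, only just above the highest control. Per kilobase Tob1 made up 39.5% ± 10.2 of the pair in AML1/ETO cells and 34.4% ± 8.95 in controls, a difference smaller than either SD.

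The promoters of the 3 genes with the largest rises are printed, from 250 bases before to 50 after the start (RefSeq, GRCm38.p6). Within the AML1/ETO group Zfp36 was highest in library 2, and Btg2 and Zfp36l1 in library 3. Such a window was at hand for 8 of the 9 genes, and Zfp36l2 is named only. Both strands were searched for TGANTCA (AP-1), TGACGTCA (the cyclic AMP response element, CRE), GGG and CC with 5 bases between them (NF-kappaB-like), GCGNGGGCG (EGR), TGTGGT (RUNX) and the CArG box of SRF, and matches are in capitals. The windows lie at chr7:28379179-28379478 for Zfp36, chr1:134079106-134079405 for Btg2 and chr12:80112964-80113263 for Zfp36l1, all on the minus strand.
Zfp36: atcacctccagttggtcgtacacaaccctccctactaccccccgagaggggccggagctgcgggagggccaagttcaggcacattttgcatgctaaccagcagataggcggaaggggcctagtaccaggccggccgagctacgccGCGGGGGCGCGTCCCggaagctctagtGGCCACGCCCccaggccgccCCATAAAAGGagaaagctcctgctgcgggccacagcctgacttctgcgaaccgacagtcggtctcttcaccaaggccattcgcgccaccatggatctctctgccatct
Btg2: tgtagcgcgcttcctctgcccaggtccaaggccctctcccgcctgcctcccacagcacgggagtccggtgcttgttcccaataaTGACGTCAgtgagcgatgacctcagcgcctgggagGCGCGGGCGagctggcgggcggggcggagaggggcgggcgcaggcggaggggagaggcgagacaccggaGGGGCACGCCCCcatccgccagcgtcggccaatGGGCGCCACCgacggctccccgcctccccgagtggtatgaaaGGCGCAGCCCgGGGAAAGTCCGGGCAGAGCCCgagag
Zfp36l1: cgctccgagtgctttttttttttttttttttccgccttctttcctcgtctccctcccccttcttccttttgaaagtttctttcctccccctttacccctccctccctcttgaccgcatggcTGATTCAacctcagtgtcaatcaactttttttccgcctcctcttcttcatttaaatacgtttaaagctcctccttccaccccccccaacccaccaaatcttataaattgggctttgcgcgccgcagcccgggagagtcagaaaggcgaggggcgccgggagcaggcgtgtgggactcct
The Zfp36 window held a CArG match, CCATAAAAGG, and an EGR match that overlaps NF-kappaB-like matches. Btg2 held a CRE match, an EGR match and several NF-kappaB-like matches, and Zfp36l1 held an AP-1 match, TGATTCA, and none of the others. Across the 8 genes, AP-1, CRE and CArG matched in 1 gene each, EGR in 2, the NF-kappaB-like motif in 7 and RUNX in none. Counted per gene over the 10276 tested genes with a window, 6.32% held AP-1, 3.54% CRE, 71.5% the NF-kappaB-like motif, 11.95% EGR, 15.6% RUNX and 1.55% the CArG box, so the 7 of 8 genes with an NF-kappaB-like match stand beside a motif that most tested genes hold. Of all 32851 windows in the table, 7.81% held AP-1, 1.79% CRE, 50.8% the NF-kappaB-like motif, 5.55% EGR, 16.8% RUNX and 1.63% the CArG box. Zfp36 and Btg2 both held EGR and NF-kappaB-like matches, Zfp36l1 held neither, and no motif was found in all 3. A match or its absence says nothing about which factor acts.

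Zc3h12a (ENSMUSG00000042677, chr4:125118423-125127840, minus strand) encodes regnase-1, which cleaves stem-loops in cytokine and transcription factor mRNAs. It stood at 576, 260.0 and 207 CPM in AML1/ETO libraries and at 205, 204, 155, 106 and 169 CPM in controls. Library 1 was well above the other AML1/ETO libraries, and library 3 was barely above the 2 highest controls. The log2 fold change was 1.05, with an SE of 0.31 (adjusted p = 0.0263). The call was lost with limma-voom (adjusted p = 0.0512) and without AML1/ETO library 1 (log2 fold change 0.47, adjusted p = 0.162). It was also lost without control 3, 4 or 5 (adjusted p = 0.0541, 0.0517 and 0.0507). With 1 library left out its edgeR adjusted p ran from 0.00935 to 0.162. Over all the alternatives it ran from 0.00302 with DESeq2 to 0.751 with edgeR's test against a 2-fold minimum. Its paralogue Zc3h12c fell (log2 fold change -0.98 with an SE of 0.27, adjusted p = 0.0208), at 15.2 CPM in AML1/ETO cells and 30.1 CPM in controls. Per kilobase Zc3h12a made up 96.1% ± 2.58 of the 4 regnase paralogues in AML1/ETO cells and 91.8% ± 2.95 in controls.

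Cnot6l (ENSMUSG00000034724, chr5:96070333-96164171, minus strand), a catalytic subunit of CCR4-NOT, was the exception. It stood at 238, 216 and 249 CPM in AML1/ETO libraries and at 239, 259, 215, 259 and 289 CPM in controls. The groups overlapped, and the log2 fold change of -0.11, with an SE of 0.14 (adjusted p = 0.669) stayed between -0.26 and -0.02 over the alternatives. Its paralogue Cnot6, the alternative catalytic subunit in the same position of the complex, fell: 239.9, 195 and 159 CPM in AML1/ETO libraries against 320.3, 318, 302, 316 and 312 CPM in controls (log2 fold change -0.67 with an SE of 0.16, adjusted p = 0.00846). Per kilobase the pair's summed level was 48.2 to 59.4 CPM per kb in AML1/ETO libraries and 66.5 to 75.3 CPM per kb in controls, and Cnot6l made up 43.5% ± 5.87 of it in AML1/ETO cells and 34.0% ± 2.28 in controls.

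The rest of CCR4-NOT, the complex that the ZFP36, BTG and TOB proteins recruit, did not rise with them. Of its 11 other subunits 1 was higher, 4 were lower and 6 did not pass, with a median log2 fold change of -0.61. Among all tested genes 11.6% were higher and 14.2% lower. The scaffold Cnot1 stood at 364 CPM in AML1/ETO cells and 549 CPM in controls (log2 fold change -0.59, adjusted p = 0.0133). Cnot9 and Cnot11 fell as well (log2 fold change -0.76 and -0.85, adjusted p = 0.00617 and 0.00651). Cnot3 rose (log2 fold change 0.70, adjusted p = 0.0137). Cnot7 and Cnot8, the deadenylases that BTG and TOB proteins bind, had log2 fold changes of -0.48 and -0.71 and did not pass (adjusted p = 0.250 and 0.108). The count of lower subunits was 4 or 5 under other library scalings and 3 to 6 when 1 library was left out. Cnot3 was not called without AML1/ETO library 3, when 0 were higher. With the replicate number as a block, 1 subunit was lower and 0 were higher. Against a 2-fold minimum none was called in either direction.

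Downstream and parallel decay genes were mixed. Of 13 other deadenylation genes 2 were higher and 1 was lower: the deadenylase Pan2 rose 2.13-fold, the nuclear poly(A)-binding protein Pabpn1 rose 1.53-fold, and the cytoplasmic Pabpc4 fell (log2 fold change -0.65, adjusted p = 0.00759). Pan2 overlapped between the groups, at 113 to 346 CPM in AML1/ETO libraries and 75.4 to 123.9 CPM in controls. With library totals as the only scaling 1 of these genes was higher and 4 were lower. Without AML1/ETO library 1 or 2 only 1 was higher, and without AML1/ETO library 1 or control 1 there were 2 lower. Of 20 decapping and 5′ to 3′ decay genes 1 was higher and 5 were lower. The decapping enzyme Dcp2 stood at 38.7 CPM in AML1/ETO cells and 89.4 CPM in controls (log2 fold change -1.21, adjusted p = 0.00643), and the helicase Ddx6 fell as well (log2 fold change -0.77, adjusted p = 0.0262), as did Lsm7 (log2 fold change -1.70, adjusted p = 0.00222). Ddx6 overlapped between the groups, at 327 to 617 CPM in AML1/ETO libraries and 594 to 834 CPM in controls. Dcp1b rose (log2 fold change 1.59, adjusted p = 0.00515), and the exonuclease Xrn1 had a log2 fold change of -0.04, with an SE of 0.21 (adjusted p = 0.925). Of 16 tested exosome and SKI genes 2 were higher and 1 was lower: the SKI helicase Skiv2l and Hbs1l rose 1.67-fold and 1.43-fold, and Exosc9 fell (log2 fold change -1.27, adjusted p = 0.00313). The 5 lower decapping genes became 2 or 3 without AML1/ETO library 2 or without any 1 control, and the 1 higher became 2 without AML1/ETO library 1. The 2 higher exosome and SKI genes became 1 without AML1/ETO library 1 or 3 or control 2, 4 or 5, and the 1 lower became 2 without AML1/ETO library 3. With library totals as the only scaling 1 exosome or SKI gene was higher and 3 were lower.

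Among 7 tested relatives of the 9 genes none was higher by edgeR (1 at an unadjusted p under 0.05, Zc3h12d) and 2 were lower, N4bp1 (log2 fold change -1.20, adjusted p = 0.00513) and Zc3h12c. Btg3, the other BTG gene tested, had a log2 fold change of 0.26, with an SE of 0.29 (adjusted p = 0.585), and the roquin Rc3h1 of -0.42, with an SE of 0.19 (adjusted p = 0.129). Of 21 tested other RNA-binding regulators 2 were higher and 5 were lower, among them Ybx1 (log2 fold change -1.29, adjusted p = 5.66e-05) and the m6A reader Ythdf2 (log2 fold change -1.13, adjusted p = 0.00399). Cpeb4 and Celf2 rose (log2 fold change 1.09 and 0.58, adjusted p = 0.00440 and 0.0106). The lower count in this list ran from 2 to 8 under other library scalings, and was 2 or 3 without AML1/ETO library 3 or without any 1 control. Among the relatives, 4 were lower with library totals as the only scaling, 1 was higher without AML1/ETO library 2, and 1 rather than 2 was lower without AML1/ETO library 2 or control 2, 3 or 4. Over these 6 lists together 8 of 88 tested genes were higher, 9.09%, and 18 were lower, 20.5%, beside 11.6% and 14.2% of all tested genes. These pooled shares are from the main fit alone. The list counts behind them changed with the scaling and with the library left out, so the difference from all tested genes is not settled.

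**Figure D4:**
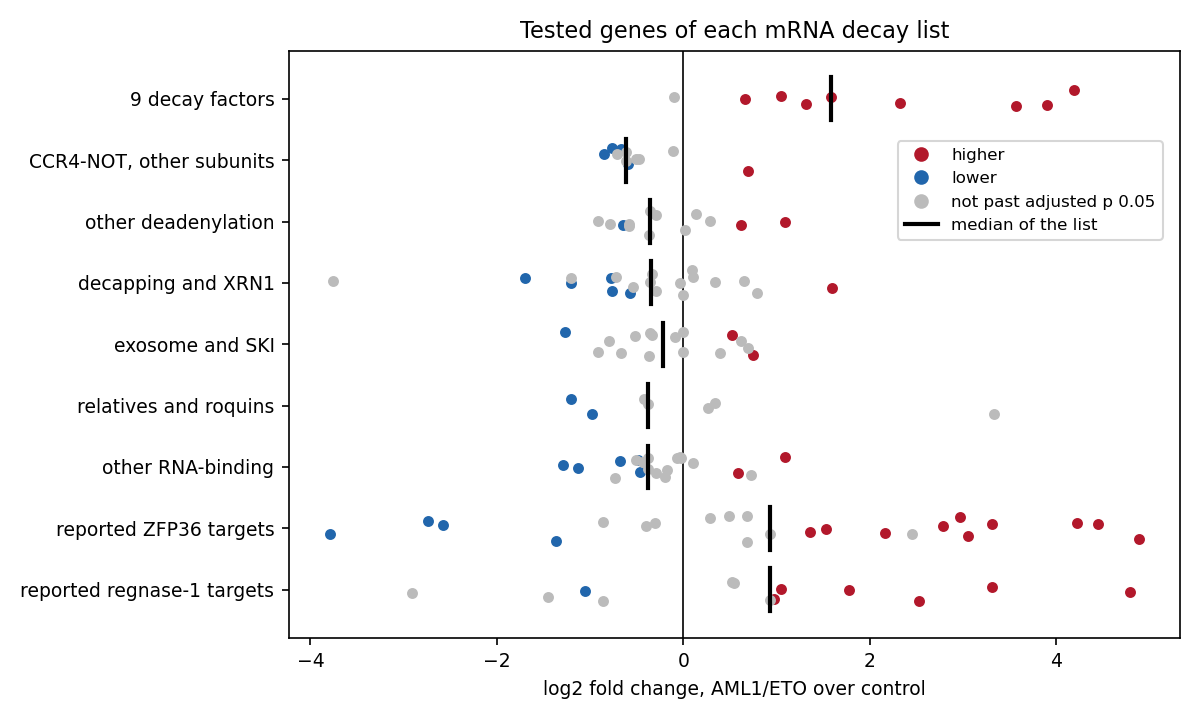
Log2 fold change (AML1/ETO over control) of every tested gene in each mRNA decay list; red points were called higher, blue lower and grey neither, points are spread vertically at random for visibility, and the black bar is the list's median. The 9 decay factors have a median of 1.58, while the 6 lists of machinery and other regulators have medians from -0.61 to -0.22. The 2 lists of reported targets share genes and have the same median, 0.93.

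Messenger RNAs reported elsewhere as targets of these factors, in mouse or human cells, were also followed. Of 23 tested ZFP36-family targets 10 were higher and 4 were lower, with a median log2 fold change of 0.93. Nfkbiz, an atypical IkappaB protein, stood at 1598, 1667 and 1362 CPM in AML1/ETO libraries and 119.6 to 206 CPM in controls (log2 fold change 3.31 with an SE of 0.19, adjusted p = 4.42e-07). Dusp1, Fos and Cdk6 rose 29.6-fold, 18.6-fold and 4.48-fold. The 4 that fell were Ccnd1, Bcl2, Irf8 and Vegfa, which lie outside the naming rule and were chosen after their values were seen (log2 fold change -3.80, -2.74, -2.57 and -1.36). Csf2, Il3, Il2 and Il23a had no read in any library, so these classical cytokine targets could not be compared. Dusp1, Fos, Ier3 and Socs3 of this list are also in the immediate early list, so the counts of the lists are not separate.

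Of 13 tested regnase-1 targets 6 were higher and 1 was lower, with a median log2 fold change of 0.93. The list holds Zc3h12a itself and shares Nfkbiz, Ptgs2, Il6 and Il2 with the ZFP36 list. The medians of both target lists are the same value, 0.933825, so they do not count as separate results. Gata2, a stem cell transcription factor whose mRNA regnase-1 degrades in mouse blood progenitors, stood at 731, 914 and 987 CPM in AML1/ETO libraries and 219.7 to 304 CPM in controls (log2 fold change 1.78 with an SE of 0.15, adjusted p = 1.13e-05). Nfkbid and Id1 rose 5.78-fold and 27.8-fold. Without AML1/ETO library 1 or 2 the count of lower targets was 2. These levels are of steady-state RNA and do not measure decay.

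Other lists of genes differed between the AML1/ETO and control libraries as well. Their counts stand beside 11.6% higher and 14.2% lower among all tested genes. Of 24 immediate early genes 17 were higher and none was lower by edgeR (18 and 1 at an unadjusted p under 0.05), and their summed level was 35868 to 49217 CPM in AML1/ETO libraries and 2971 to 5257 CPM in controls. Dusp2 and Nr4a1 had the smallest p of that list, at 19.2-fold and 9.16-fold. Zfp36 and Btg2 are themselves known as early response genes, and the part of that response in the result was not tested. Of 13 mast cell markers 10 passed the filter, all 10 of them higher. The list summed to 5805 to 10809 CPM in AML1/ETO libraries and 778 to 899 CPM in controls. Kit and Gata2 of this list are also among the stem cell and LSK markers, and Gata2 alone averaged 256 CPM in controls. Cma1 stood at 62.5 to 262 CPM in AML1/ETO libraries and at 0 in every control. It therefore passed the filter only through the AML1/ETO libraries and could not have been called lower. Mcpt4, Tpsb2 and Tpsab1, at 0 in every control too, did not pass the filter. Cpa3 rose 269-fold and Il1rl1 171-fold, and the part of mast cells in the result was not tested. Neutrophil, monocyte and macrophage, B cell, and T and NK cell markers went the other way, with 4 of 9, 4 of 10, 4 of 7 and 2 of 4 tested genes lower and none higher, also at an unadjusted p under 0.05. The summed levels in AML1/ETO libraries and in controls were 174 to 1062 CPM against 1158 to 2985 CPM for neutrophil markers and 44.3 to 71.6 CPM against 168 to 365 CPM for monocyte and macrophage markers. For B cell markers they were 5.30 to 13.4 CPM against 76.4 to 237 CPM, and for T and NK cell markers 8.18 to 11.1 CPM against 76.3 to 135 CPM. Cd79a, Pax5 and Ighm were at 0 in every AML1/ETO library, Cd3e and Cd8a in every library, and the part of these cells in the result was not tested. Tested genes at 0 in every AML1/ETO library passed the filter only through controls and could only be called lower. That holds for Kdr and Ermap below as well. Of 9 stromal and endothelial markers 4 were tested, and 2 of them were higher and 1 lower, with sums of 349 to 459.6 CPM in AML1/ETO libraries and 155 to 201 CPM in controls. Pdgfrb rose 3.38-fold and Pecam1, also a gene of blood progenitors, 2.09-fold. Kdr, Cxcl12, Lepr and Pdgfra were at 0 in every AML1/ETO library, and Cdh5 was at 0 in every library of both groups. Of 10 erythroid markers 8 were tested, and 1 was higher and 2 were lower, with sums of 17.0 to 71.1 CPM in AML1/ETO libraries and 11.3 to 79.8 CPM in controls. The higher one was Hbb-bt, a beta-globin, at 2.73, 13.5 and 61.5 CPM in AML1/ETO libraries and 0 to 0.117 CPM in controls (log2 fold change 9.72, adjusted p = 0.000186). Hbb-bt passed the filter only through the AML1/ETO libraries and could not have been called lower. Ermap was at 0 in every AML1/ETO library, and the part of these cells was not tested either.

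The genes whose log2 CPM followed Zfp36 most closely over the 8 libraries, among 7575 tested genes with a mean of at least 20 CPM, were Ier2, Jun, Ppp1r15a, Dusp2 and Egr1, with Pearson's r of 0.998, 0.997, 0.996, 0.996 and 0.996. For Btg2 they were Gimap4, Rgl2, Patz1, Per1 and Ppp1r15a, with r of 0.996, 0.995, 0.992, 0.992 and 0.992. These values describe likeness only: the 8 libraries form 2 groups, and a gene that differs strongly between them and little within them gives a high r.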

How the data were processed

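RNA-seq of sorted LSK cells gave 8 libraries, grouped by the titles in the labels. The authors deposited raw read counts, 1 row per Ensembl gene and 1 column per library, per the file headers. HISAT2 2.0.5, featureCounts 1.5.0-p3 and the mm10 build come from the submitters' processing notes. The annotation release, the strand setting and how multiply aligned reads were treated are not stated in the labels.

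Differences were tested in R 4.3.3 with edgeR 4.0.16 (filterByExpr, TMM factors, glmQLFit and glmQLFTest) over all 8 libraries, two-sided, with Benjamini-Hochberg adjustment over the 15009 tested genes; SEs were derived from the F statistic. CPM values use TMM-scaled library sizes. Levels per kilobase divide CPM by the union of exons in GENCODE M21 (GRCm38), which held 54409 of the table's identifiers. Alternatives were other scalings, filters, DESeq2 1.42.0, limma 3.58.1 (voom with quality weights), each library left out, both first libraries left out, a replicate block and a 2-fold minimum. The edgeR procedure was tested on simulated data. All 13 pairs of replicate libraries differed by more than sampling noise.

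The members and lists were chosen with earlier results of these data known. Genes named were the 9 members; up to 4 genes by smallest p of each pathway list and 2 of each marker list; and the 5 genes most like Zfp36 and Btg2. Others were named after their values were seen, and not every gene the rule took is printed.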

Additional observations from a re-analysis of the deposited data

Results flagged for a closer look

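Among the 78 sets of 5 control values checked, 4 had a library set apart from the other 4 by more than 0.71 of the range. Chance flags about 1 in 20 sets, so this number is near what chance gives. Lsm7, a subunit of the decapping activator ring, stood at 48.5 CPM in control library 3 and at 27.0 to 31.2 CPM in the other controls. Nkg7, a cytotoxic granule gene, stood at 114.4 CPM in the same library and at 60.9 to 74.8 CPM elsewhere. The beta-globin Hbb-bt stood at 2.73, 13.5 and 61.5 CPM in the AML1/ETO libraries (log2 fold change 9.72, edgeR adjusted p = 0.000186), against 0.1173 CPM, or 2 reads, in control library 2, which was set apart, and 0 in the other controls. It passed the filter on low counts only through the AML1/ETO libraries. The share of Zc3h12d in the regnase family was 0% in control library 1 and 0.287% to 0.372% in the other controls. None of the 9 decay factors had such a library; the AML1/ETO group of 3 was not checked.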

How the results depend on the processing

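Over 18 alternatives no decay factor changed direction. Zfp36, Zfp36l1, Btg1 and Btg2 passed in all 18, and Cnot6l in none. With a test against a 2-fold minimum 4 of the 9 remained called higher, Zfp36l2, Tob1 and Tob2 being lost with Zc3h12a; the same test left 521 genes higher and 568 lower among all tested genes, and 12 higher and 2 lower in the 8 pathway lists. With the replicate block 951 genes were higher and 1098 lower, with 15 and 11 in the pathway lists, and Tob1 and Zc3h12a were not called (adjusted p = 0.0813 and 0.102). Same-numbered libraries did not deviate together (r of -0.04 to 0.04 across 15009 genes), although both libraries numbered 1 stood apart on a principal component. Without these Zc3h12a was not called (log2 fold change 0.55, adjusted p = 0.115). Leaving out 1 library gave 7 or 8 members higher and 0 lower, 1385 to 1752 genes higher and 1537 to 2287 lower, and 21 to 24 higher and 16 to 25 lower in the pathway lists. Scaling moved the median of all genes on the log2 scale by -0.15 (library totals) to 0.07 (DESeq2 size factors), and the risen share of calls was 44.9%, against 34.2% and 49.9%. Without exon length, Btg2 made up 52.9% of its pair in AML1/ETO cells and 27.6% in controls, Tob1 18.7% in AML1/ETO cells and 15.6% in controls, Cnot6l 54.5% in AML1/ETO cells and 44.5% in controls, and Zc3h12a 92.5% of its family in AML1/ETO cells and 82.7% in controls. In the 150 bases before the start, 0 members held CRE. Of 16 single-list counts, each under 18 alternatives, 214 of 288 values stayed within 1.5 times. Depth limited only scarce list genes: every decay factor had at least 190 reads in every library.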

Other observations

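The promoter motifs were also counted over all tested genes with a RefSeq window, 1325 called higher, 1617 called lower and 7334 not called. CRE matched in 2.64% of the higher, 4.08% of the lower and 3.59% of the uncalled genes. EGR matched in 14.4%, 13.2% and 11.2% of these classes in the same order, the NF-kappaB-like motif in 74.4%, 73.8% and 70.4%, AP-1 in 6.72%, 6.25% and 6.26%, RUNX in 15.9%, 14.2% and 15.8%, and the CArG box in 1.58%, 1.67% and 1.51%. These are counts of letters in the window, given without a test.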
